A study of Mus musculus with 12 samples.

Results

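The genes described here are the translation initiation factors and their regulators of the mouse hepatocyte line AML12. They were chosen by name alone, as every row of the FPKM table whose symbol starts with Eif followed by a digit from 1 to 6, with pseudogenes left out. The rule found 57 of 24824 genes, and 0 of the matching rows were pseudogenes. FPKM is a read number divided by gene length and library total, so it allows levels of different genes to be compared. Of the 57 genes, 51 reached a mean of 1 FPKM over the 12 libraries and were tested, among 10615 genes tested in all.

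AML12 is an immortalised hepatocyte line, labelled wild type, and all groups were the same line harvested at 24 h. Group A was kept in standard growth medium without any added agent. In group B the medium held 300 μM CuCl2 and 40 nM elesclomol, an ionophore that carries copper into cells (Cu/ES). Group C received the same Cu/ES with 1000 μM taurocholic acid (TCA), a conjugated bile acid, and in group D TCA was given alone at 1000 μM. Each group had 3 libraries of polyadenylated RNA, and the labels do not say whether these came from separate cultures, so p-values measure the spread between these libraries, which may be technical. The design asks how initiation genes respond to copper overload (B vs. A), how TCA acts on top of it (C vs. B) and without it (D vs. A), and whether these effects of TCA differ.

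Whole read numbers could be worked back from the steps between FPKM values, and library totals ran from 29115011 to 39782142 reads. Replicates differed beyond counting noise in every pair. The second library of group C stood furthest from its replicates, with a chi-square per degree of freedom of 57.4 and 49.9 against 6.27 between the other two. Leaving it out gave 11 higher and 13 lower initiation genes for C vs. B in place of 8 and 12. Of 10 hepatocyte markers listed, 6 had a row in the table, and the defining markers *Alb* and *Hnf4a* were at 0 in every library of groups A and D, whereas *Krt8* and *Krt18* averaged 344 and 285 FPKM without treatment, and 183 and 81.9 under Cu/ES. The 6 hepatocyte markers summed to 597 to 650 FPKM in group A and 236 to 288 in group B. Summed endothelial markers (3 of 3 in the table) ran from 0.922 to 1.16 FPKM in group A and from 6.76 to 10.5 in group B, with *Pecam1* at 0.214 and 6.85 on average. Summed fibroblast markers (4 of 4) ran from 13.6 to 27.4 FPKM in group A and from 1.15 to 2.76 in group B, summed macrophage markers (4 of 4) from 5.86 to 6.90 and from 1.43 to 2.69, and summed cholangiocyte markers (4 of 4) from 230 to 326 and from 111 to 140. In the last of these lists *Krt19* went from 268 to 77.3 FPKM on average and *Sox9* from 10.6 to 50.9. The part of these shifts in the results was not tested. In bulk RNA, fewer cells of a type and less RNA per cell cannot be told apart.

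Initiation is the step at which a ribosome is loaded onto an mRNA and finds the start codon. eIF2 brings the initiator tRNA as a GTP-bound ternary complex, eIF2B reloads eIF2 with GTP, and kinases that phosphorylate eIF2 block this reloading and so lower general translation under stress. The cap-binding factor eIF4E, the scaffold eIF4G and the helicase eIF4A recruit the mRNA, and 4E-binding proteins (4E-BPs) compete with eIF4G for eIF4E. eIF3 holds the small ribosomal subunit and the mRNA together, eIF1 and eIF1A guard start-site selection, and eIF5 and eIF5B complete the joining of the large subunit.

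Within several of these factors, related genes moved in opposite directions or by very different amounts under Cu/ES. The promoter windows of 3 such pairs are shown, whose members encode the same activity (eIF1, eIF4A or an eIF2 kinase) and yet differed. They were picked after their values were seen, and other such pairs, as *Eif4g1* and *Eif4g3*, are not shown. Each window runs from 250 bases before to 50 bases after the RefSeq transcription start of GRCm38.p6, 5′ to 3′ on the strand of the gene, with each CCAAT box (CCAAT, or ATTGG on the other strand) in capitals. On the FPKM scale the first gene of each pair was higher in group B at the adjusted p, and the second was lower past both thresholds given below.

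*Eif1* (chr11:100319699-100319998, plus strand): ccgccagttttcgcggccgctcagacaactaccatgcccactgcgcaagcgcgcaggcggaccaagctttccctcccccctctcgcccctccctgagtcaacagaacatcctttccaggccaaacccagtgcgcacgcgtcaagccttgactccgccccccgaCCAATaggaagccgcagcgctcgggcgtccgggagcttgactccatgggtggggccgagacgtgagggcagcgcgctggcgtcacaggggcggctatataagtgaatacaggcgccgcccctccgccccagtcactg

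*Eif1b* (chr9:120492356-120492655, plus strand): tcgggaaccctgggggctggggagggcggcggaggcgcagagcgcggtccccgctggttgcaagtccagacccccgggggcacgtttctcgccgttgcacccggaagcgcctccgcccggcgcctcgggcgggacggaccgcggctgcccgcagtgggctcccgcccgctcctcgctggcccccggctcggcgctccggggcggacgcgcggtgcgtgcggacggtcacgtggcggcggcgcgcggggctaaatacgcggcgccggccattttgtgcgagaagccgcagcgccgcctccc

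*Eif4a1* (chr11:69672374-69672673, minus strand): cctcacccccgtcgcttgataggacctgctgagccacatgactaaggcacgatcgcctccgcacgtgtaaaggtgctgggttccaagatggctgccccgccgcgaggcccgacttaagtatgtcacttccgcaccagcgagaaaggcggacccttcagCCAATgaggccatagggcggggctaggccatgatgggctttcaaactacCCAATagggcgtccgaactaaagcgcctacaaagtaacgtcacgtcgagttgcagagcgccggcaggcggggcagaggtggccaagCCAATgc

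*Eif4a2* (chr16:23107218-23107517, plus strand): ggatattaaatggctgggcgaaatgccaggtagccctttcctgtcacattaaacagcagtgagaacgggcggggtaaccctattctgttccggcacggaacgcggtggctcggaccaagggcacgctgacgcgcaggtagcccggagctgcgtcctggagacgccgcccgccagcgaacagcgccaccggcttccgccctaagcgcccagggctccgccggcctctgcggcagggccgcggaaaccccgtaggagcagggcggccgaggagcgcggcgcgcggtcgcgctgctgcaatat

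*Eif2ak1* (chr5:143817542-143817841, plus strand): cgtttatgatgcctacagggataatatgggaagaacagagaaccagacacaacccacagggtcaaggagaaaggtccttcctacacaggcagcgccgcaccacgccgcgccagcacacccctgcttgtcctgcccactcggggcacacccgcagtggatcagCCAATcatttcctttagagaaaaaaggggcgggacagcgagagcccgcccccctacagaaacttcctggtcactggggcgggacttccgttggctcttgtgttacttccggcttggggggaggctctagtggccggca

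*Eif2ak2* (chr17:78882523-78882822, minus strand): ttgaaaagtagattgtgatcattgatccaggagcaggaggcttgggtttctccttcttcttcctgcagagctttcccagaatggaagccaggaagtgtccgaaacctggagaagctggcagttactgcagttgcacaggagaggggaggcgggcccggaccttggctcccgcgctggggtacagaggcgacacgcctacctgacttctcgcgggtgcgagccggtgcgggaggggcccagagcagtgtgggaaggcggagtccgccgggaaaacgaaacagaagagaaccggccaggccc

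The windows of *Eif1*, *Eif4a1* and *Eif2ak1* held 1, 3 and 1 CCAAT boxes, and those of *Eif1b*, *Eif4a2* and *Eif2ak2* held 0. The windows of *Eif2ak4*, a further kinase gene that was lower, held 0 as that of *Eif2ak2* did. Other relatives did not follow this contrast. The windows of *Eif4g1*, which was higher, and *Eif4g3*, which was lower, all held 0. *Eif2ak3*, an eIF2 kinase gene that was lower on the FPKM scale, held 6, and *Eif2b2* (higher) and *Eif2b5* (lower) held 1 each. RefSeq windows were found for 43 of the 57 genes. Among genes with a window, a CCAAT box was present in 5 of the 6 initiation genes that were higher in group B past both thresholds, in 1 of the 8 that were lower and in 8 of the 27 others tested. The same shares over all genes with a window were 46.5% of those higher, 41.6% of those lower and 45.6% of the others, and 37.4% of all 32851 windows held the box. The other motifs searched on both strands were the heat shock element (GAA and TTC in alternation, with 2 bases between units), the metal response element core (TGCGCNC or TGCACNC), the amino acid response element (TGATGNAA), the GC box (GGGCGG, which on the other strand can share its last letters with a CCAAT box) and the antioxidant response element core (TGACNNNGC). A heat shock element was in 0 of the 56 windows of initiation genes and in 0.603% of all windows. The metal response element core was in 42.9% of the 56 windows against 25.7% of all, and the GC box in 69.6% against 35.7%. The antioxidant element was in 14.3% against 12.4% and the amino acid element in 1.79% against 3.97%. Counted by gene among tested genes, the metal element was in 35% of those higher in group B, 41.6% of those lower and 41.2% of the others. For the GC box these shares were 56.8%, 73.4% and 70.1%. For both motifs the windows of initiation genes thus lay near the shares of tested genes. These matches are descriptions of letters in a window and not of binding.

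Cu/ES moved initiation genes both ways on the FPKM scale, on which most genes tested were lower. Calls used limma on log2(FPKM + 1) with Benjamini-Hochberg adjustment over all 10615 genes, and both thresholds means an adjusted p under 0.05 with a log2 fold change beyond 1 in size. The added 1 shrinks the log2 fold changes of genes at low FPKM, which then fall short of the fold difference of means. Past both thresholds, 7 of 51 initiation genes (13.7%) were higher in group B than in group A and 10 (19.6%) were lower, against 10.1% and 53.0% of all genes tested. At the adjusted p alone, 22 (43.1%) were higher and 21 (41.2%) lower, against 20.1% and 72.0% of all genes, and 8 did not pass. The median log2 fold change of the initiation genes was 0.03 and that of all genes was -1.10, and 41 of the 51 lay above the median of all genes. Where libraries of different groups are said below not to overlap, this describes their values. The share of all genes without overlap was not computed, and 9777 of the 10615 passed the adjusted p.

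The direction of small changes depended on how libraries were scaled. Median-ratio scaling, under which the median of all genes was -0.03, gave 32 higher and 7 lower initiation genes past both thresholds. Over all 10615 genes it gave 2753 higher and 2710 lower, so falls did not outnumber rises on that scale. TPM scaling gave 2 higher and 13 lower, against 847 and 6724 of all genes. Quantile normalization gave 8 and 9, against 2198 and 2353. Only 4 of these 8 and 8 of these 9 were among the 7 and 10 called on the FPKM scale. Leaving out the second library of group A gave 4 higher and 10 lower, against 1084 and 5523 of 10547 genes. The 7 genes called higher were higher, and past the adjusted p, in all 17 settings compared for them, and so were 9 of the 10 called lower. *Eif2b3* was the exception, at 0.24 under quantile normalization and without a pass under median-ratio scaling. The plot of fold changes by complex shows these 51 genes against the median of all genes.

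**Figure D1:**
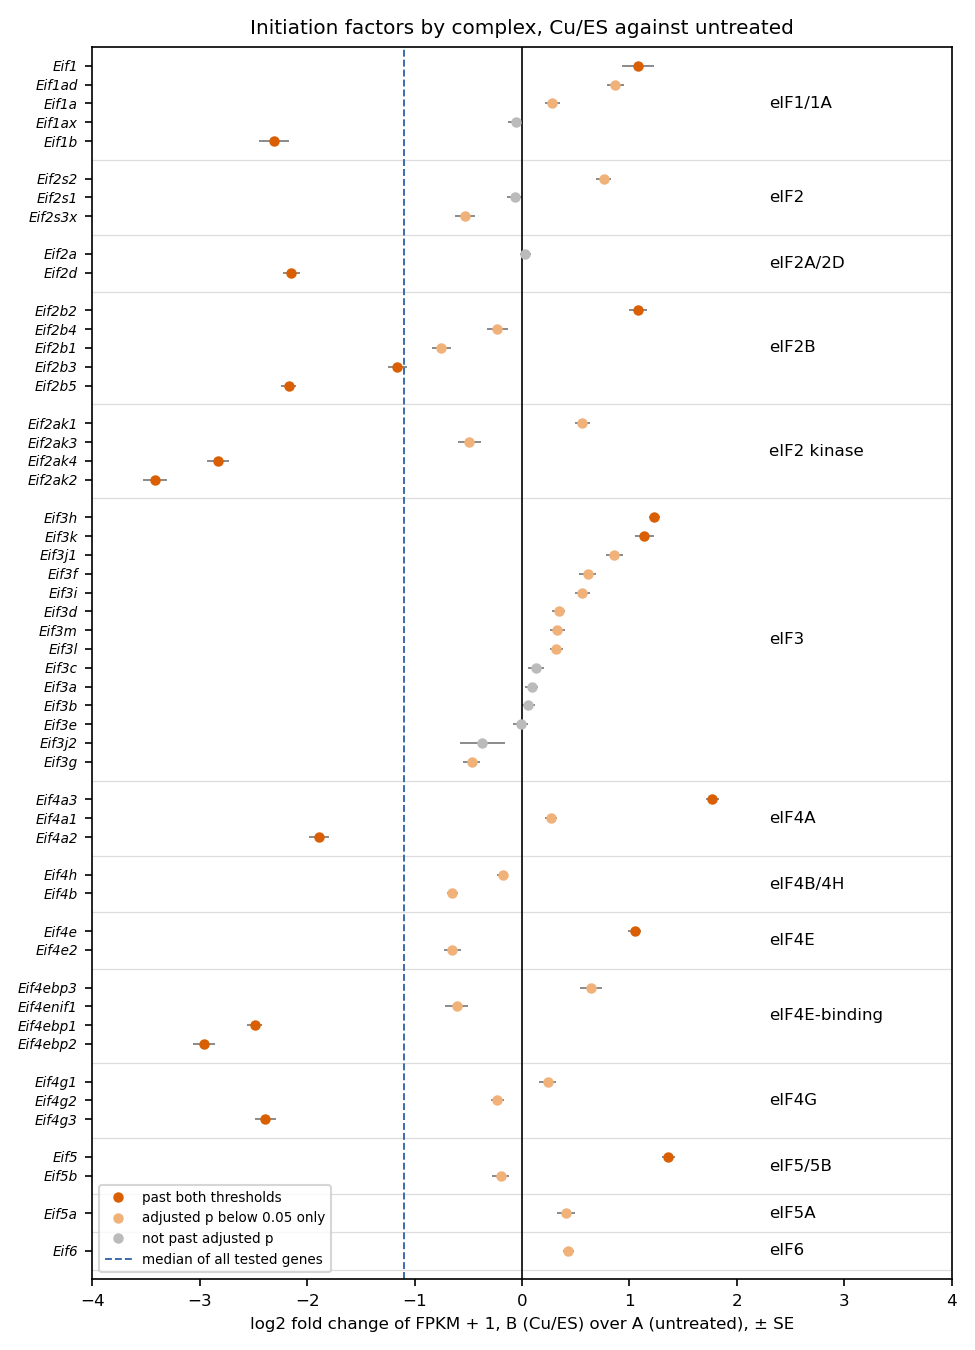
Log2 fold change of FPKM + 1 in group B over group A (x axis, ± standard error from limma, 3 libraries a group) for the 51 initiation genes tested, grouped by complex on the y axis. Colours mark the calls, the dashed line is the median of all 10615 genes at -1.10, and the points run from *Eif2ak2* at -3.42 to *Eif4a3* at 1.77.

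Start-site factors were led by a contrast between a pair of near-identical proteins. *Eif1*, which keeps the scanning ribosome open until it meets a start codon, was read at 510.0, 436 and 556 FPKM in untreated cells and 984, 1157 and 1036 with Cu/ES. All group B libraries lay above all group A libraries, a 2.12-fold difference of means (log2 fold change 1.08, adjusted p = 6.87e-06, limma and Benjamini-Hochberg, standard error 0.15). Over 17 settings the log2 fold change of *Eif1* ran from 0.29 (quantile normalization) to 2.37 (median-ratio scaling). Its paralogue *Eif1b* stood at 20.3, 17.8 and 22.5 FPKM in untreated cells and 2.99, 3.92 and 2.94 with Cu/ES, 6.15-fold lower in group B, with no overlap (log2 fold change -2.31, adjusted p = 6.77e-10, limma and Benjamini-Hochberg). *Eif1b* rested on 636 to 806 reads a library in group A and 83 to 115 in group B. Its share of the summed FPKM of both genes went from 3.88% ± 0.0451 to 0.308% ± 0.0275 (SD, n = 3). *Eif1a*, the autosomal gene for eIF1A, was higher at the adjusted p (log2 fold change 0.28) but not under TPM scaling (-0.08). Its X-linked counterpart *Eif1ax* did not pass (-0.06, adjusted p = 0.421, limma and Benjamini-Hochberg). *Eif1ad*, which encodes an eIF1A domain protein, was higher by 0.87.

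None of the 3 genes of eIF2 itself passed both thresholds. *Eif2s2*, which encodes the β subunit, was read at 172, 162 and 173 FPKM in untreated cells and 279, 291 and 291 with Cu/ES and rose at the adjusted p, with a log2 fold change of 0.76 (adjusted p = 5.49e-08, limma and Benjamini-Hochberg). *Eif2s3x*, the X-linked gene of the γ subunit, stood at 34.5, 33.8 and 31.2 FPKM in untreated cells and 23.4, 23.3 and 21 with Cu/ES (log2 fold change -0.53, but 0.71 under median-ratio scaling and 0.02 under quantile normalization). *Eif2s1*, which encodes the α subunit that the kinases phosphorylate, had a log2 fold change of -0.07 and did not pass (adjusted p = 0.352, limma and Benjamini-Hochberg). Of the transcripts of *Eif2s3x*, 35.4% of 50-base words also occur in other genes, mostly a processed pseudogene, so its reads may have been divided.

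*Eif2a* and *Eif2d*, whose products can deliver an initiator tRNA without eIF2, parted. *Eif2a* stood at 58.8, 60.3 and 61.7 FPKM in untreated cells and 62.6, 61.3 and 60.6 with Cu/ES and its groups overlapped (log2 fold change 0.03, adjusted p = 0.614, limma and Benjamini-Hochberg). *Eif2d* stood at 5.45, 5.49 and 6.28 FPKM in untreated cells and 0.576, 0.453 and 0.518 with Cu/ES, an 11.1-fold lower mean (log2 fold change -2.15, adjusted p = 5.48e-12, limma and Benjamini-Hochberg).

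The 5 subunits of the exchange factor eIF2B, which work as one decamer, did not move together. *Eif2b2*, the β subunit of its regulatory core, stood at 38.8, 33 and 41.7 FPKM in untreated cells and 78.3, 76.7 and 87.1 with Cu/ES, a log2 fold change of 1.08 (adjusted p = 1.33e-08, limma and Benjamini-Hochberg, standard error 0.08). *Eif2b5*, which encodes the catalytic ε subunit, stood at 34.5, 33.9 and 34.3 FPKM in untreated cells and 7.13, 6.71 and 6.6 with Cu/ES, 5.03-fold lower in group B (log2 fold change -2.17, adjusted p = 7.77e-13, limma and Benjamini-Hochberg). The groups did not overlap in either gene. *Eif2b3*, the γ subunit that pairs with ε, was lower past both thresholds at -1.16, with the exception given above. *Eif2b1* (α) and *Eif2b4* (δ) were lower at the adjusted p, at -0.75 and -0.23, and both were higher under median-ratio scaling (0.40 and 0.91). Within each library, FPKM of *Eif2s1* was 1.36 to 1.43 times that of *Eif2b5* in group A and 6.31 to 7.55 times in group B.

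The 4 eIF2 kinase genes changed unequally. *Eif2ak2* encodes PKR, which responds to double-stranded RNA, and stood at 15.8, 19 and 15.4 FPKM in untreated cells (A), 0.704, 0.763 and 0.50 with Cu/ES (B), 0.715, 0.484 and 0.635 with Cu/ES and TCA (C) and 15.4, 17.7 and 14.3 with TCA alone (D). It was 25.6-fold lower in group B than in group A (log2 fold change -3.42, adjusted p = 8.83e-13, limma and Benjamini-Hochberg, standard error 0.11), the lowest change of the 51 genes tested. *Eif2ak4* encodes GCN2, the sensor of amino acid shortage and stalled ribosomes. It was read at 17.3, 16.6 and 16.5 FPKM in untreated cells (A), 1.54, 1.56 and 1.39 with Cu/ES (B), 1.32, 0.809 and 1.33 with Cu/ES and TCA (C) and 13.1, 14.2 and 14.6 with TCA alone (D), 11.2-fold lower in group B (log2 fold change -2.83, adjusted p = 2.09e-12, limma and Benjamini-Hochberg). In both genes the groups with Cu/ES lay below every library without it.

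*Eif2ak1* encodes HRI, the kinase that responds to haem shortage and mitochondrial stress, and it went the other way. It stood at 11.1, 12.3 and 11.4 FPKM in untreated cells (A), 16.9, 17.8 and 17.9 with Cu/ES (B), 19.1, 17.3 and 18.3 with Cu/ES and TCA (C) and 12.9, 15.2 and 14 with TCA alone (D), with a log2 fold change of 0.56 for B vs. A (adjusted p = 5.53e-06, limma and Benjamini-Hochberg), which kept its direction in all 17 settings. *Eif2ak3* encodes PERK, the kinase of the endoplasmic reticulum, and stood at 10.5, 8.05 and 10.1 FPKM in untreated cells (A), 7.33, 5.98 and 6.22 with Cu/ES (B), 7.84, 5.97 and 7.75 with Cu/ES and TCA (C) and 8.23, 8.1 and 8.62 with TCA alone (D). Its log2 fold change of -0.49 (adjusted p = 0.001, limma and Benjamini-Hochberg) turned to 0.65 under median-ratio scaling and 0.75 under quantile normalization. The summed FPKM of the 4 kinases was 54.7 ± 1.21 without and 26.2 ± 0.230 with Cu/ES (SD, n = 3). *Eif2ak1* made up 21.2% ± 0.822 of that sum in group A and 66.9% ± 2.74 in group B, and *Eif2ak3* 17.5% ± 2.70 and 24.9% ± 2.53. The shares of *Eif2ak2* and *Eif2ak4* went from 30.6% ± 2.92 to 2.51% ± 0.523 and from 30.7% ± 0.95 to 5.71% ± 0.337. With TCA added to Cu/ES the order of the 4 genes was as in group B, and with TCA alone *Eif2ak2* held 30.2% ± 2.27 and *Eif2ak1* 26.9% ± 0.803.

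**Figure D2:**
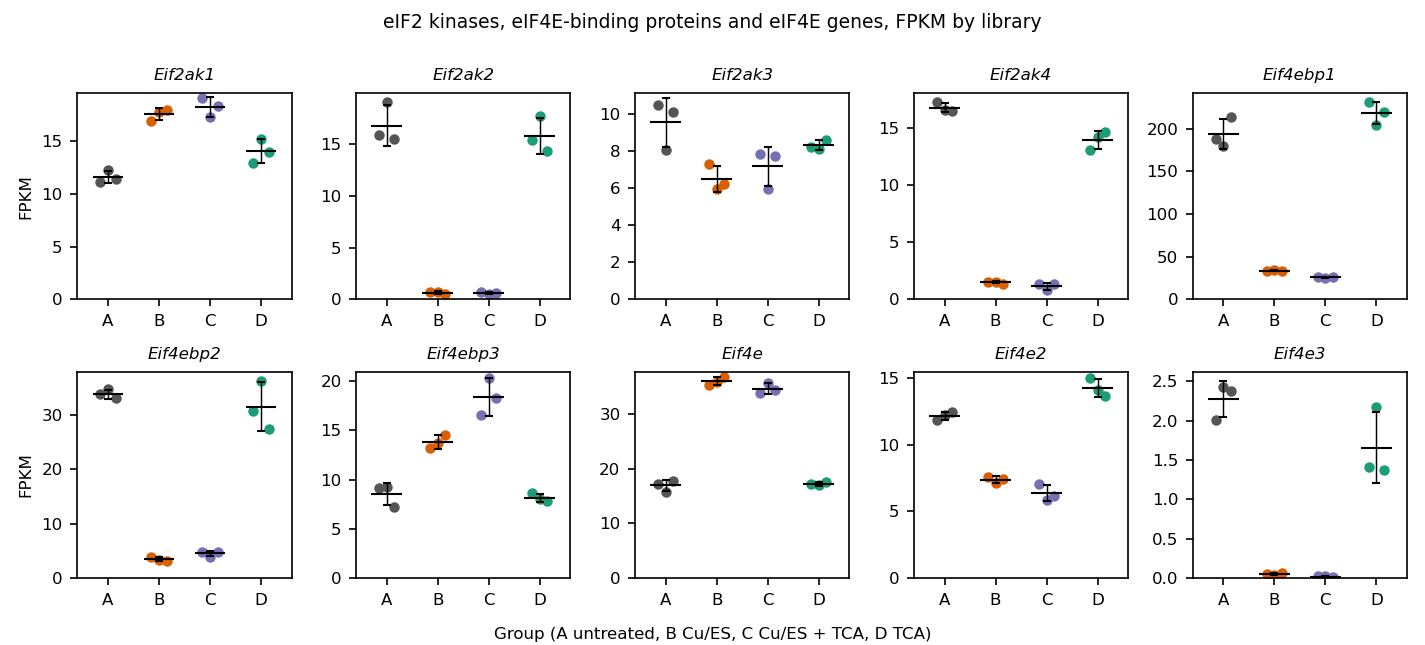
FPKM (y axis, linear from 0) in each library of groups A to D (x axis) for the 4 eIF2 kinases, the 3 genes of 4E-binding proteins and the 3 eIF4E genes, with the mean as a bar and the SD as whiskers (n = 3). *Eif2ak2*, *Eif2ak4*, *Eif4ebp1*, *Eif4ebp2* and *Eif4e3* are lower in groups B and C than in groups A and D, whereas *Eif2ak1*, *Eif4ebp3* and *Eif4e* are higher there than in group A.

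Of the 14 eIF3 genes, all tested, 8 were higher and 1 lower in group B at the adjusted p and 5 did not pass. Over all genes tested, 20.1% were higher and 72.0% lower. The median log2 fold change of the eIF3 genes was 0.33, while the median of all genes was -1.10. *Eif3h*, a regulatory subunit, was read at 403, 394 and 395 FPKM in untreated cells and 927, 931 and 949.7 with Cu/ES, a log2 fold change of 1.23 (adjusted p = 2.38e-11, limma and Benjamini-Hochberg). *Eif3k* also passed both thresholds, at 1.14. *Eif3g*, whose product binds RNA and aids scanning, was the lowest of the genes that passed, at 89.3, 84.6 and 96.4 FPKM in untreated cells and 63.5, 59.4 and 71.4 with Cu/ES (log2 fold change -0.47, but 0.80 under median-ratio scaling). No library of group B overlapped group A in these 3 genes, which is given as a description.

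On the FPKM scale *Eif3a*, *Eif3b*, *Eif3c* and *Eif3e* had log2 fold changes of 0.09, 0.06, 0.13 and -0.01 and did not pass. All 4 were higher under median-ratio scaling, by 1.36, 1.33, 1.41 and 1.27. Their lowest values over the 17 settings were -0.28, -0.31, -0.39 and -0.57, so their direction depended on the scaling. *Eif3d*, which can bind the cap itself, *Eif3l* and *Eif3m* were higher by 0.34, 0.32 and 0.33, but lower under TPM scaling and quantile normalization. *Eif3f* and *Eif3i* rose by 0.61 and 0.56 and *Eif3j1*, the loosely bound subunit that sits in the mRNA entry channel, by 0.86. *Eif3j2* shares 90.8% of its 50-base words with *Eif3j1*, so the levels of this pair are uncertain. It stood at 2.49, 2.08 and 1.72 FPKM in untreated cells (A), 1.53, 2.03 and 0.766 with Cu/ES (B), 0.866, 0.746 and 0.922 with Cu/ES and TCA (C) and 0.592, 1.92 and 0.931 with TCA alone (D).

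Leaving *Eif3j2* out, mean FPKM of the eIF3 genes ran from 34.2 (*Eif3j1*) to 397 (*Eif3h*) in group A and from 62.7 to 936 in group B, with the same genes at both ends in all 4 groups. The spread between the highest and lowest was 11.6-fold in untreated cells, 14.9-fold with Cu/ES, 17.1-fold with Cu/ES and TCA and 8.67-fold with TCA alone. *Eif3d* and *Eif3j1* overlap genes of the opposite strand over 43.3% and 19.0% of their exonic bases in GENCODE M21, and whether counting used the strand is not given in the sources used here.

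**Figure D3:**
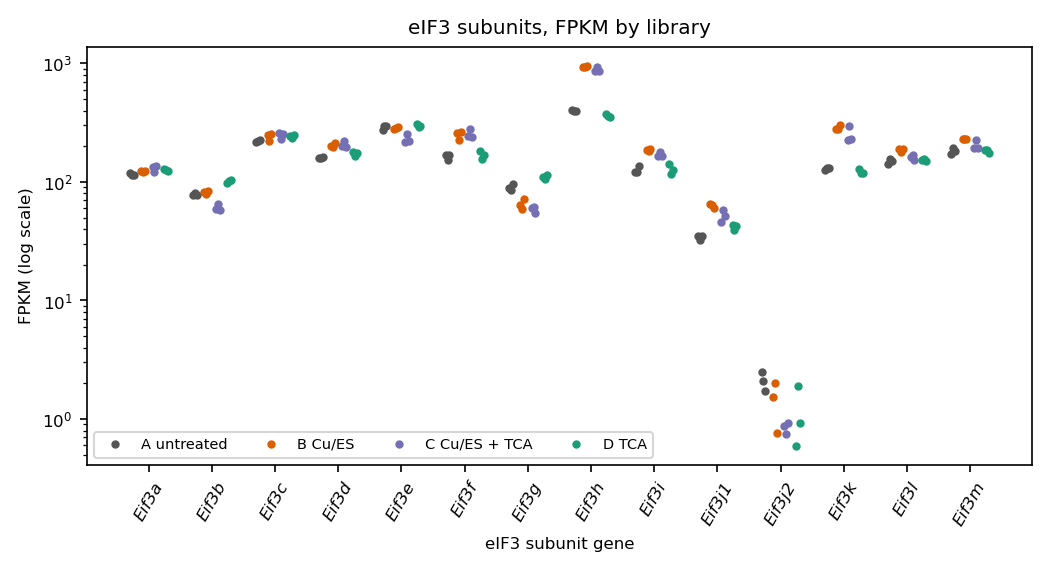
FPKM of the 14 eIF3 subunit genes (x axis) in each library, on a log scale, coloured by group with 3 libraries each. *Eif3h* is highest in every group, at 397 FPKM on average in group A and 936 in group B, and *Eif3j2* lies far below the other 13.

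The helicase eIF4A, which unwinds the 5′ end of the mRNA, showed the same parting of paralogues as eIF1. *Eif4a1*, the main form, stood at 673, 693 and 683 FPKM in untreated cells (A), 783, 827 and 862 with Cu/ES (B), 920.1, 1042 and 938 with Cu/ES and TCA (C) and 768, 737 and 723 with TCA alone (D). Its log2 fold change for B vs. A was 0.27 (adjusted p = 0.00104, limma and Benjamini-Hochberg), but -0.10 under TPM scaling and -0.54 under quantile normalization, and 65.3% of its 50-base words occur in other genes, mostly a processed pseudogene. *Eif4a2* stood at 46, 48.7 and 49.1 FPKM in untreated cells (A), 11.6, 13.3 and 11.7 with Cu/ES (B), 7.14, 9.53 and 8.85 with Cu/ES and TCA (C) and 38.5, 40.8 and 36.3 with TCA alone (D), 3.94-fold lower in group B than in group A (log2 fold change -1.89, adjusted p = 6.61e-11, limma and Benjamini-Hochberg).

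*Eif4a3*, whose product is not an initiation helicase but the RNA-clamping core of the exon junction complex, rose most of the 51 genes. It was read at 83.8, 84.8 and 88.3 FPKM in untreated cells (A), 287, 296 and 299 with Cu/ES (B), 268, 294 and 268 with Cu/ES and TCA (C) and 116, 107 and 111 with TCA alone (D), 3.43-fold higher in group B than in group A (log2 fold change 1.77, adjusted p = 1.39e-12, limma and Benjamini-Hochberg, standard error 0.06). It rose in every one of the 17 settings. Of the summed FPKM of *Eif4a1*, *Eif4a2* and *Eif4a3*, *Eif4a3* made up 10.5% ± 0.249 in group A and 26.0% ± 0.546 in group B, and *Eif4a2* 5.87% ± 0.126 and 1.08% ± 0.0856.

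On the FPKM scale both helicase cofactors were lower, and the scaffolds split. *Eif4b* stood at 346, 361 and 357 FPKM in untreated cells and 227, 229 and 220.1 with Cu/ES (log2 fold change -0.65, adjusted p = 1.89e-08, limma and Benjamini-Hochberg, but 0.63 under median-ratio scaling). *Eif4h*, its smaller relative, stood at 176, 169.6 and 177 FPKM in untreated cells and 153, 155 and 152 with Cu/ES (-0.18, but 1.10 under median-ratio scaling). Among the eIF4G scaffolds, *Eif4g1*, the main form, stood at 99.5, 109 and 98.8 FPKM in untreated cells and 125, 121 and 118 with Cu/ES (log2 fold change 0.24, but -0.13 under TPM scaling).

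*Eif4g3*, a second eIF4G with the same binding regions, stood at 18.6, 18.3 and 18.5 FPKM in untreated cells (A), 2.89, 2.51 and 2.77 with Cu/ES (B), 3.29, 2.38 and 3.76 with Cu/ES and TCA (C) and 21.9, 22.5 and 21.2 with TCA alone (D), 6.78-fold lower in group B than in group A (log2 fold change -2.39, adjusted p = 2.22e-11, limma and Benjamini-Hochberg). Both groups with Cu/ES lay far below both groups without it. *Eif4g2*, which encodes DAP5, a scaffold without the eIF4E-binding region, was lower by -0.23, but higher under median-ratio scaling (1.05).

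The gene of the cap-binding protein rose while 2 of the 3 4E-BP genes fell. *Eif4e* stood at 17.3, 15.8 and 17.8 FPKM in untreated cells (A), 35.3, 36 and 36.8 with Cu/ES (B), 33.8, 35.8 and 34.5 with Cu/ES and TCA (C) and 17.2, 17 and 17.5 with TCA alone (D), with every library of groups B and C above every library of groups A and D. Its log2 fold change for B vs. A was 1.05 (adjusted p = 5.16e-10, limma and Benjamini-Hochberg, standard error 0.06). *Eif4e2*, whose product binds the cap without recruiting eIF4G and serves repression, stood at 11.8, 12.2 and 12.4 FPKM in untreated cells (A), 7.6, 7.11 and 7.4 with Cu/ES (B), 7.03, 5.86 and 6.18 with Cu/ES and TCA (C) and 15, 14.1 and 13.7 with TCA alone (D) (log2 fold change -0.65, but 0.51 under median-ratio scaling and 0.51 under quantile normalization). *Eif4e3* had a mean under 1 FPKM over the 12 libraries and was not tested. It was counted at 528 to 648 reads a library in untreated cells, 8 to 14 with Cu/ES, 4 to 5 with Cu/ES and TCA and 373 to 588 with TCA alone. *Eif4e* thus made up 54.0% ± 1.82 of the summed FPKM of the 3 genes in group A and 82.9% ± 0.646 in group B.

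*Eif4ebp1*, the most abundant 4E-BP gene of these cells, stood at 187, 180.1 and 213 FPKM in untreated cells (A), 33.4, 34.2 and 33 with Cu/ES (B), 26, 24.7 and 26.6 with Cu/ES and TCA (C) and 231, 205 and 219.9 with TCA alone (D), 5.77-fold lower in group B than in group A (log2 fold change -2.49, adjusted p = 4.6e-13, limma and Benjamini-Hochberg, standard error 0.07). *Eif4ebp2* stood at 33.8, 34.7 and 33 FPKM in untreated cells (A), 3.92, 3.34 and 3.2 with Cu/ES (B), 4.83, 3.91 and 4.85 with Cu/ES and TCA (C) and 30.8, 36.3 and 27.4 with TCA alone (D), 9.7-fold lower (log2 fold change -2.96, adjusted p = 2.57e-12, limma and Benjamini-Hochberg). In both genes all libraries with Cu/ES lay below all libraries without it. *Eif4ebp3* went up, at 9.12, 9.26 and 7.2 FPKM in untreated cells (A), 13.2, 13.7 and 14.5 with Cu/ES (B), 16.5, 20.3 and 18.3 with Cu/ES and TCA (C) and 8.6, 8.02 and 7.84 with TCA alone (D) (log2 fold change 0.64, adjusted p = 2e-05, limma and Benjamini-Hochberg), but 67.3% of its exonic bases lie in a readthrough gene of the same strand, so its level is uncertain. *Eif4enif1*, which encodes the eIF4E transporter 4E-T, was lower by -0.61, but higher under median-ratio scaling (0.61) and quantile normalization (0.20).

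Ratios within a library do not depend on its scaling. The ratio of *Eif4ebp1* to *Eif4e* was 10.9 to 12 in untreated cells, 0.897 to 0.95 with Cu/ES, 0.69 to 0.773 with Cu/ES and TCA and 12.1 to 13.4 with TCA alone. For *Eif4ebp2* to *Eif4e* it was 1.86 to 2.19 in untreated cells and 0.0871 to 0.111 with Cu/ES. By FPKM, both 4E-BP genes thus stood above *Eif4e* in untreated cells and below it in group B. For *Eif4ebp2* the first of these rests on the gene lengths behind FPKM, 1786 bases against 10231 for *Eif4e*. Its reads in group A, 2308 to 2412 a library, were fewer than the 6309 to 7105 of *Eif4e*. The change of a ratio between groups does not depend on these lengths. The ratio of *Eif4a2* to *Eif4a1* was 0.0684 to 0.0719 in untreated cells, 0.0135 to 0.016 with Cu/ES and 0.00776 to 0.00944 with Cu/ES and TCA. That of *Eif4g3* to *Eif4g1* was 0.167 to 0.187 in untreated cells and 0.0208 to 0.0235 with Cu/ES, and that of *Eif1b* to *Eif1* was 0.0399 to 0.0408 and 0.00284 to 0.00339. In all 11 ratios computed, no library of group B overlapped group A, with an exact permutation p of 0.1 each, the smallest that 3 libraries against 3 allow (two-sided, Benjamini-Hochberg 0.143 over 33 tests). With 3 libraries a group, this test cannot reach 0.05 for a single ratio. The share of other gene pairs without overlap was not computed. Of all 10615 genes, 9777 passed the adjusted p of limma for B vs. A, so a lack of overlap is not particular to these pairs.

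**Figure D4:**
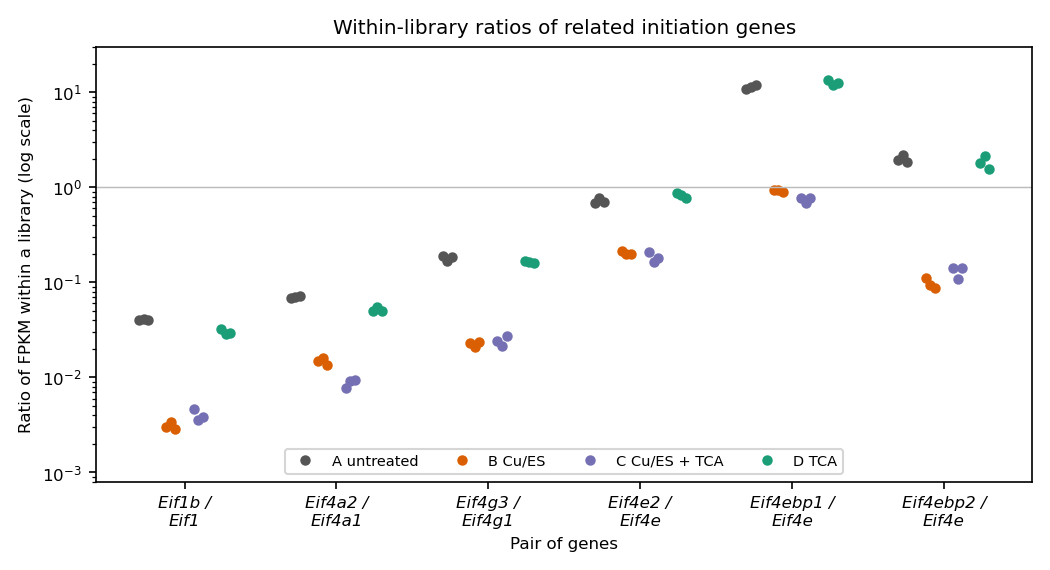
Ratio of FPKM between 2 genes of the same library (y axis, log scale) for 6 pairs (x axis), with each of the 3 libraries a group as a point. In each pair the groups with Cu/ES lie below the groups without it, and *Eif4ebp1* over *Eif4e* falls from 10.9 to 12 in group A to 0.897 to 0.95 in group B.

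Of the genes of the last steps, *Eif5* rose past both thresholds. *Eif5*, the activator of GTP hydrolysis by eIF2, stood at 50.7, 46.6 and 48.4 FPKM in untreated cells (A), 127, 122 and 130.3 with Cu/ES (B), 134, 140.3 and 136 with Cu/ES and TCA (C) and 67.6, 63.2 and 66.6 with TCA alone (D) (log2 fold change 1.36, adjusted p = 1.49e-11, limma and Benjamini-Hochberg). *Eif5b*, the GTPase of subunit joining, stood at 16.6, 17.3 and 16.5 FPKM in untreated cells and 15.7, 12.8 and 15.3 with Cu/ES (log2 fold change -0.20, but 1.01 under median-ratio scaling and 0.74 under quantile normalization). *Eif5a*, the hypusine-bearing factor that eases peptide bond formation at difficult residues, stood at 529, 500.0 and 562 FPKM in untreated cells and 710.4, 654 and 751 with Cu/ES (log2 fold change 0.41, but -0.32 under quantile normalization).

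*Eif6*, which keeps large ribosomal subunits from joining too early, stood at 131, 136 and 138 FPKM in untreated cells (A), 179, 180.2 and 187 with Cu/ES (B), 173, 187 and 184 with Cu/ES and TCA (C) and 191, 188 and 196 with TCA alone (D), a log2 fold change of 0.43 for B vs. A (adjusted p = 3.17e-06, limma and Benjamini-Hochberg). Under TPM scaling the call was lost, as it was with quantile normalization (0.06 and 0.06). *Eif5a2*, the second eIF5A gene, was under the filter, at 1.29, 1.49 and 0.90 FPKM in untreated cells and 0.766, 0.528 and 0.53 with Cu/ES, 2.02-fold lower on average and without overlap. The remaining untested genes were close to absent. *Eif4a3l1* had 0 reads in groups A and D and 1 to 4 reads a library in groups B and C, and *Eif1ad2*, *Eif1ad4* and *Eif1ad6* were above 0 in 1 library each.

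Across the 51 genes, those that fell past both thresholds tended to be longer and less expressed than those that rose. The median gene length recovered from FPKM was 4371 bases for the 10 lower genes, 1463 for the 7 higher and 2843 for the other 34. Median FPKM in group A was 19.3, 85.6 and 84.3. Spearman's rho of the B vs. A log2 fold change was -0.37 with gene length and 0.38 with mean FPKM in group A over the 51 genes, against -0.07 and -0.09 over all 10615. These are correlations across genes of the same libraries, which are not independent replicates, and are given as a description. The summed FPKM of all 57 genes was 5848 ± 132 without treatment, 7751 ± 150 with Cu/ES, 7902 ± 621 with Cu/ES and TCA and 6370 ± 209 with TCA alone (SD, n = 3), or 1.52%, 1.56%, 1.67% and 1.65% of the summed FPKM of all genes.

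Genes that work beside these factors were taken from 3 lists. Of 16 genes of elongation and termination, all tested, 3 rose and 3 fell (18.8% each) past both thresholds under Cu/ES, against 10.1% and 53.0% of all genes tested, and their median log2 fold change was -0.06, against -1.10 over all genes. These shares and this median of all genes also stand beside the other lists. *Etf1*, the release factor that reads stop codons, went from 56.8 ± 3.16 to 258 ± 9.98 FPKM (SD, n = 3, log2 fold change 2.16, adjusted p = 3.5e-13, limma and Benjamini-Hochberg), and *Eef2k*, the kinase that inhibits elongation factor 2, from 4.74 ± 0.501 to 0.0736 ± 0.00797 (-2.42). *Gspt2*, the second gene of the release factor GTPase, fell from 3.88 ± 0.195 to 0.0591 ± 0.0803 FPKM (-2.21).

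Of 17 helpers of the ternary complex and start site, 3 rose (17.6%) and 6 fell (35.3%) past both thresholds, with a median of -0.80. *Ppp1r15a*, which encodes GADD34, the stress-induced phosphatase subunit that reverses eIF2 phosphorylation, rose from 53.8 ± 10.3 to 873 ± 29.8 FPKM (4.01, adjusted p = 2.75e-12, limma and Benjamini-Hochberg), above any initiation gene. *Impact*, an inhibitor of GCN2 activation, rose from 8.51 ± 0.679 to 54.3 ± 4.47 (2.54), and *Nck1*, an adaptor that recruits phosphatase to eIF2, fell from 11.3 ± 0.512 to 1.46 ± 0.164 (-2.32). Of 24 genes that control the cap complex, 2 rose (8.33%) and 10 fell (41.7%), with a median of -0.89. *Akt1s1*, the mTOR inhibitor PRAS40, rose by 2.57, while *Tsc2*, the brake on mTOR signalling, and *Cyfip1*, which binds eIF4E and represses it with FMRP, fell by 2.42 and 2.33 on the log2 scale. Median-ratio scaling turned these counts to 9 higher in the elongation list, 5 higher and 1 lower in the ternary complex list, and 7 higher and 4 lower in the cap list. Of all 10615 genes it called 2753 higher and 2710 lower.

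TCA on top of Cu/ES changed initiation genes about as often as other genes. Between groups C and B, 8 of 51 (15.7%) were higher and 12 (23.5%) lower at the adjusted p, against 20.4% and 23.6% of all genes tested, and 0 passed both thresholds. Their median log2 fold change was -0.06, against -0.03 over all genes. *Eif1ax* changed most, from 24.3, 23.2 and 26.3 FPKM in group B to 15.9, 17 and 15.3 in group C (log2 fold change -0.59, adjusted p = 3.32e-05, limma and Benjamini-Hochberg, standard error 0.07). Its autosomal counterpart *Eif1a* went the opposite way, from 59.6, 54.2 and 65.6 to 85.8, 86.8 and 91.9 FPKM (0.56, adjusted p = 5.15e-05, limma and Benjamini-Hochberg). *Eif1b* rose from 2.99, 3.92 and 2.94 to 5.43, 6.22 and 4.39 FPKM (0.56, adjusted p = 0.00476, limma and Benjamini-Hochberg), though not with limma-voom on recovered reads (adjusted p = 0.073, in a range of 0.00129 to 0.073 over 17 settings). The groups did not overlap in these 3 genes, which were named for their large changes.

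Other genes that passed for C vs. B came from several complexes. *Eif4a2* fell (-0.48) as *Eif4a1* rose (0.23), and *Eif4ebp1* fell (-0.37) as *Eif4ebp2* and *Eif4ebp3* rose (0.30 and 0.38). In eIF2B, *Eif2b3* and *Eif2b5* fell by 0.53 and 0.25 on the log2 scale, and *Eif2b4* rose by 0.40. *Eif2s2* and *Eif2s3x* were lower by -0.36 and -0.34. In eIF3, *Eif3b*, *Eif3e*, *Eif3j1*, *Eif3l* and *Eif3m* were lower, from -0.43 to -0.18, and 0 of the 14 genes were higher. *Eif2a* and *Eif5b* completed the higher genes, at 0.20 and 0.22. The weakest of these calls were *Eif3m*, which passed in 6 of 17 settings (adjusted p up to 0.158, limma and Benjamini-Hochberg), *Eif4ebp2* in 9 (up to 0.186, with overlapping groups), *Eif5b* in 11 and *Eif3l* in 13. None of the 4 eIF2 kinases passed. Fitted on the groups compared alone, 5 genes were higher and 10 lower, and TPM scaling gave 12 higher and 9 lower.

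TCA without Cu/ES raised more initiation genes than it lowered. Between groups D and A, 16 of 51 (31.4%) were higher and 4 (7.84%) lower at the adjusted p, against 10.5% and 11.5% of all genes tested, with 0 past both thresholds. Their median log2 fold change was 0.13, against -0.01 over all genes, and 35 of 51 lay above the median of all genes. *Eif1ad* changed most, from 12.9, 13.2 and 12.7 FPKM in group A to 23, 18.2 and 21.5 in group D (log2 fold change 0.65, adjusted p = 0.000269, limma and Benjamini-Hochberg, standard error 0.08). *Eif6* and *Eif5* followed with log2 fold changes of 0.50 and 0.43 (adjusted p = 0.000113 and 0.000331, limma and Benjamini-Hochberg). All group D libraries lay above all group A libraries in these 3 genes, which were named for their large changes.

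The other 13 higher genes were *Eif1a*, *Eif2s1*, *Eif2s2*, *Eif2b3*, *Eif2b4*, *Eif2ak1*, *Eif3b*, *Eif3g*, *Eif3j1*, *Eif4a3*, *Eif4g1*, *Eif4g2* and *Eif5a*, with log2 fold changes from 0.21 (*Eif2s2*) to 0.38 (*Eif4g1*). The lower genes were *Eif2a* (-0.34), *Eif2d* (-0.32), *Eif4a2* (-0.31) and *Eif4b* (-0.18). Of these calls, 8 of the 16 higher genes and 1 of the 4 lower (*Eif2a*) passed in every setting compared. The counts also depended on single libraries. The higher genes numbered 8 without the first library of group A, 9 without the second, 10 without the first of group D and 8 without the third. The lower genes numbered 2 in each of those fits and 1 without the third library of group A. Without the second library of group C, which shares only the estimate of spread, 21 were higher and 7 lower.

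The effect of TCA with Cu/ES differed from its effect without in 25 of the 51 genes (interaction term of the limma fit, adjusted by Benjamini-Hochberg), 5 (9.80%) with a higher and 20 (39.2%) with a lower change under Cu/ES, against 17.7% and 19.8% of all genes tested. *Eif2b3* differed most. It went from 5.94, 6.61 and 6.35 FPKM in group A to 8.25, 7.81 and 7.71 in group D, and from 2.35, 1.97 and 2.5 in group B to 1.43, 1.03 and 1.34 in group C, a difference of -0.82 on the log2 scale (adjusted p = 0.000401, limma and Benjamini-Hochberg, standard error 0.13). *Eif3b*, which scaffolds the scanning side of eIF3, went from 77.4, 80.1 and 77.9 to 98.8, 103 and 104 FPKM without Cu/ES and from 82.4, 79.4 and 84.3 to 58.8, 64.8 and 58.5 with it (-0.80, adjusted p = 2.53e-05, limma and Benjamini-Hochberg). In both genes the libraries moved up with TCA alone and down with TCA under Cu/ES, without overlap in either contrast.

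*Eif1b* differed the other way, by 0.74 (adjusted p = 0.01, limma and Benjamini-Hochberg). It stood at 20.3, 17.8 and 22.5 FPKM in untreated cells and 21.3, 15.2 and 17.2 with TCA alone, which overlapped. The count of 5 genes with a higher change became 3 without the first or the second library of group A or the third of group D. The plot of both TCA contrasts sets these changes side by side.

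**Figure D5:**
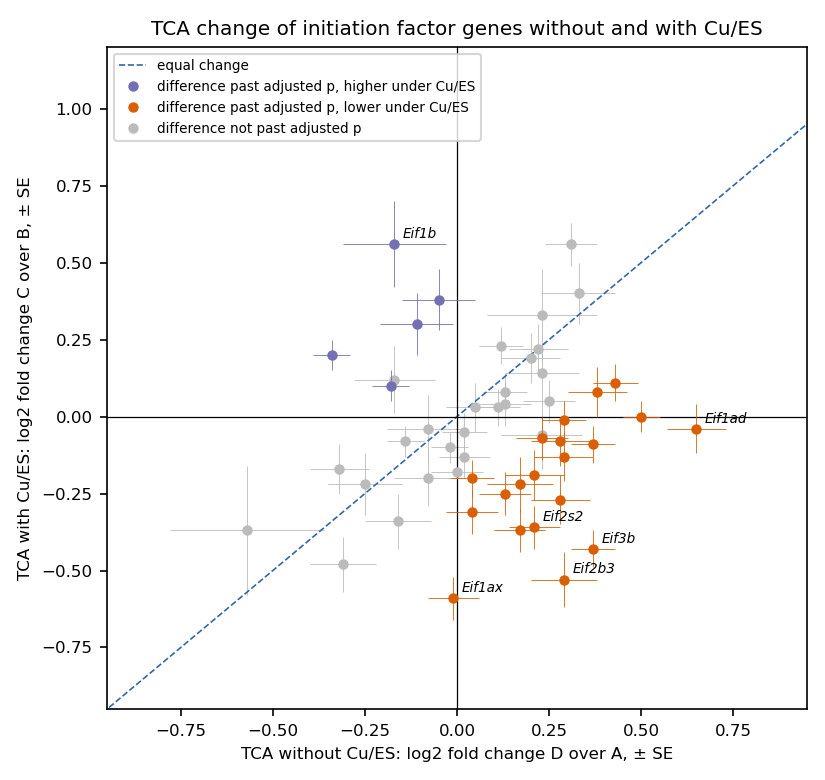
Log2 fold change with TCA in the absence of Cu/ES (x axis, D over A) against that in its presence (y axis, C over B) for the 51 initiation genes tested, with standard errors from limma (3 libraries a group). Colours mark the 25 genes whose difference passed the adjusted p, of which 20 lie below the dashed line of equal change, with *Eif2b3* and *Eif3b* furthest from it, and 5 lie above it.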

How the data were processed

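RNA of AML12 cells in 4 groups of 3 libraries was analysed. The authors deposited FPKM values, one column a library, and the submitters' processing notes name fastp, HISAT2, HTSeq and GRCm39 without versions. No reference of that build was used here, so promoter sequences and overlaps come from RefSeq and GENCODE M21 of GRCm38.p6. FPKM divides by the read total of the library, so it gives shares of reads and not amounts per cell.

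From these values log2(FPKM + 1) was fitted with limma 3.58.1 (R 4.3.3), with 4 group means over all 12 libraries, empirical Bayes moderation with a trend and 8 residual degrees of freedom, for genes that averaged 1 FPKM or more. Tests were two-sided and adjusted by Benjamini-Hochberg over all 10615 genes. Reads were recovered as whole numbers (tolerance 0.02) in 22212 of 22212 genes above 0 in at least 2 libraries. Read numbers cover counting error only. Steps were tested on simulated data.

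Values in every library are given for the eIF2 kinases, 4E-BPs and eIF4E genes, for the highest and lowest gene of each complex, and for the 3 largest changes of the other comparisons. Up to 3 genes of each list were named by the largest change past both thresholds. Other genes were named after their values were seen. The members and lists were chosen with earlier results of these data known. Same-numbered libraries did not deviate together in every pair, so the replicate number was an alternative only. Python 3.11.15 with pandas 2.3.3, SciPy 1.17.1 and Matplotlib 3.10.9 made tables and plots.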

Additional observations from a re-analysis of the deposited data

Results flagged for a closer look

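The change with TCA under Cu/ES minus the change with TCA alone passed the adjusted p of the limma interaction term in 25 initiation genes, which are given here as differences on the log2 scale. In the start-site factors it was 0.74 for *Eif1b*, -0.57 for *Eif1ax* and -0.69 for *Eif1ad*. Around eIF2 it was -0.30 for *Eif2s1*, -0.57 for *Eif2s2* and 0.55 for *Eif2a*. In eIF2B it was -0.39 for *Eif2b1*, -0.82 for *Eif2b3* and -0.38 for *Eif2b5*. In eIF3 it was -0.80 for *Eif3b*, -0.35 for *Eif3e*, -0.42 for *Eif3g*, -0.55 for *Eif3j1* and -0.24 for *Eif3l*. Among the helicases and cap-binding genes it was -0.46 for *Eif4a3*, 0.28 for *Eif4b* and -0.40 for *Eif4e2*. Among 4E-BPs it was -0.54 for *Eif4ebp1*, 0.41 for *Eif4ebp2* and 0.44 for *Eif4ebp3*, the last with an uncertain level. It was -0.31 for *Eif4g1* and -0.30 for *Eif4g2*. In the late factors it was -0.32 for *Eif5*, -0.36 for *Eif5a* and -0.51 for *Eif6*.

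Of the 20 genes with a lower change under Cu/ES, 13 passed in every setting compared, and of the 5 with a higher change, 3 did, namely *Eif1b*, *Eif2a* and *Eif4b*. *Eif3l* and *Eif4g1* passed in fewest settings, 9 and 10 of 22. Groups of 3 libraries are too small for a test of single outlying libraries, and none was made.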

How the results depend on the processing

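For B vs. A the 7 higher genes became 2 under TPM scaling, 32 under median-ratio scaling and 4 to 7 when each library was left out in turn, 4 being without the second library of group A. Under quantile normalization 8 were higher, of which only 4 were among these 7. All reversals found were for B vs. A, and for the other comparisons only genes that had passed were compared across settings. Under TPM scaling the log2 fold change was negative for *Eif1a* (-0.08), *Eif2a* (-0.34), *Eif3a* (-0.28), *Eif3b* (-0.31), *Eif3c* (-0.24), *Eif3d* (-0.03), *Eif3l* (-0.05), *Eif3m* (-0.04), *Eif4a1* (-0.10) and *Eif4g1* (-0.13). Under median-ratio scaling it was positive for *Eif1ax* (1.17), *Eif2s1* (1.19), *Eif2s3x* (0.71), *Eif2b1* (0.40), *Eif2b4* (0.91), *Eif2ak3* (0.65), *Eif3e* (1.27), *Eif3g* (0.80), *Eif4b* (0.63), *Eif4h* (1.10), *Eif4e2* (0.51), *Eif4enif1* (0.61), *Eif4g2* (1.05) and *Eif5b* (1.01). Quantile normalization gave *Eif1ax* (0.58), *Eif2s1* (0.20), *Eif2s3x* (0.02), *Eif2b1* (0.46), *Eif2b3* (0.24), *Eif2b4* (0.98), *Eif2ak3* (0.75), *Eif3j2* (0.94), *Eif4e2* (0.51), *Eif4enif1* (0.20) and *Eif5b* (0.74) a positive change, and *Eif3a* (-0.17), *Eif3c* (-0.39), *Eif3d* (-0.05), *Eif3l* (-0.07), *Eif3m* (-0.14), *Eif4a1* (-0.54) and *Eif5a* (-0.32) a negative one. These methods differ in the total or distribution they hold equal between libraries, and all 3 leave ratios within a library or the order of its genes as they were. For C vs. B the 8 higher genes became 5 in a fit of the groups compared alone and 6 to 11 with a library left out. For D vs. A the 16 higher genes became 8 to 13 with a library of group A or D left out and 15 to 21 with one of B or C, and the 4 lower became 2 with a pseudocount of 0.1, 1 under median-ratio scaling, 1 to 5 with a library of group A or D left out and 4 to 7 with one of B or C, 7 being without the second library of C. For the interaction the 5 higher became 3 without a filter, 3 with limma-voom on recovered reads and 3 to 6 with a library left out, and the 20 lower became 16 to 22. Among the lists, median-ratio scaling moved the higher calls to 9 (elongation and termination), 5 (ternary complex helpers) and 7 (cap complex control) and the lower calls to 1 and 4 in the last 2. The cause of these shifts was not tested. The other counts stayed within 1.5 times.

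The replicate number as a replicate block gave 7 higher and 10 lower genes for B vs. A, 9 and 12 with TCA under Cu/ES, 16 and 5 with TCA alone, and 5 and 19 in the interaction. Of the calls given here it lost that of *Eif4g1* in the interaction (adjusted p = 0.0564, limma and Benjamini-Hochberg) and no other. Deviations from the group means correlated between same-numbered libraries with a mean r of 0.125 (-0.171 to 0.579, 11 of 18 pairs over 0.1), and 7 of 12 libraries correlated best with one of their own number, a hint from the data and not the design. Depth limits *Eif4e3*, *Eif4a3l1* and the *Eif1ad2*, *Eif1ad4* and *Eif1ad6* genes most.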
